A study of Mus musculus with 12 samples.

Results

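Kidneys of Alport mice that had been given metformin were set against kidneys of vehicle-treated wild type mice, and the disease difference left under the drug was described by gene and by gene class. Samples were chosen by their titles, and the comparison used 6 of the 12 samples of the series, 3 per group, with all 22206 probe sets of the array. The Alport mice carried a hemizygous COL4A5 nonsense allele (G5X), and all mice were 16 weeks old. Metformin was given in drinking water at 2.5 mg/mL in weeks 6 to 11 and at 5 mg/mL from week 12. Vehicle-treated Alport mice and Alport mice given losartan, at 125 and then 250 µg/mL over the same weeks, served for reference. The labels date the later dose to week 20 although the mice were taken at 16 weeks, and they call the losartan co-administered without saying with what, so that the losartan group may have received both drugs. They name no wild type group given metformin, and they do not say that the 3 samples of a group came from separate mice. A p-value here thus rests on how far these samples vary, and that variation may be technical only.

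Alport syndrome is caused by faults in the type IV collagen chains that build the mature glomerular basement membrane. Protein leaks through the weakened filter, and the disease then reaches the tubules and the interstitium, where tubule cells express injury genes, immune cells gather and matrix is laid down. Metformin is a biguanide used against diabetes. It lowers glucose output and inhibits complex I of the mitochondrial respiratory chain, it is taken into proximal tubule cells by organic cation carriers, and it leaves the body in the urine.

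Each value is a log2 signal from RNA of the whole kidney, so that fewer cells of a type and less RNA per cell cannot be told apart. The median signal lay between 5.88 and 6.065 in the 12 samples, and the lower quartile between 4.182 and 4.25. A probe set with values under the lower quartile is taken as near the bottom of the scale, and no fold change is given against it. Kidney genes were among the brightest, with Slc34a1, the main phosphate carrier of the proximal tubule, at 18.4 to 19.19 over all samples. Among markers of neighbouring tissues, the urothelial Upk3a lay at 3.92 to 4.9 and the adipocyte gene Plin1 at 3.14 to 4.31. Others reached higher values in the Alport vehicle group, Krt5 7.56, Upk1b 6.96, Ucp1 6.93 and Adipoq 5.82. Under metformin their highest values were 4.7, 5.46, 3.21 and 3.9. In vehicle samples 1 to 3 the list mean was 5.52, 5.69 and 7.16 for urothelium and 5.03, 4.67 and 6.05 for adipocytes. The part of neighbouring tissue in vehicle sample 3 was not tested. Metformin sample 3 stood nearer to wild type than the other two in many disease genes. The mean over 28 genes of tubular injury was 8.08, 8.13 and 8.10 in wild type and 10.57, 10.10 and 9.19 in metformin samples 1 to 3. The mean over 27 macrophage genes was 6.39, 6.25 and 6.16 in wild type and 8.31, 7.94 and 7.08 with metformin. Several results that depend on sample 3 are given without it as well. The part of tissue composition, RNA quality or handling in its position was not tested.

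Col4a5, the mutated gene, read 5.06, 5.83 and 5.40 in wild type and 4.48, 4.48 and 4.50 under metformin. Its 3 metformin values lay below all wild type values, but the signal was low throughout. The difference of -0.94 ± 0.23 (SE, n = 3 per group) passed the test (limma, adjusted p = 0.0307). It lost the call under 7 of 14 alternatives, among them leaving out any sample but wild type 1, with adjusted p up to 0.134. In vehicle-treated Alport kidneys Col4a5 read 4.44, 4.13 and 4.97, within the same low range.

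Against wild type, 928 of 22206 probe sets (4.18%) differed in the metformin group at an adjusted p under 0.05. Of these, 599 were higher (2.70% of all tested) and 329 lower (1.48%). A change of at least 2-fold was seen in 379 of the higher and 82 of the lower ones, and of at least 4-fold in 69 and 8. The median difference over all probe sets was -0.03 on the log2 scale. After each sample was centred on its own median, 513 were higher and 486 lower, so that the higher share went from 64.5% to 51.4%. The size of the list depended on single samples, falling without wild type 1, 2 or 3 to 392, 340 or 258 higher and 184, 161 or 94 lower. Without metformin sample 1 it was 246 higher and 100 lower, and without sample 2 it was 320 and 111. Without sample 3 it was 721 higher and 298 lower. By the same test and against the same 3 wild type samples, 3582 probe sets (16.1%) differed in vehicle-treated Alport kidneys, 1871 higher (8.43%) and 1711 lower (7.71%), and 122 (0.549%) in losartan-treated ones. The 3 contrasts share their controls and were not set against each other as lists. Counts within gene lists below are to be read beside the shares of all probe sets given here.

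**Figure D1:**
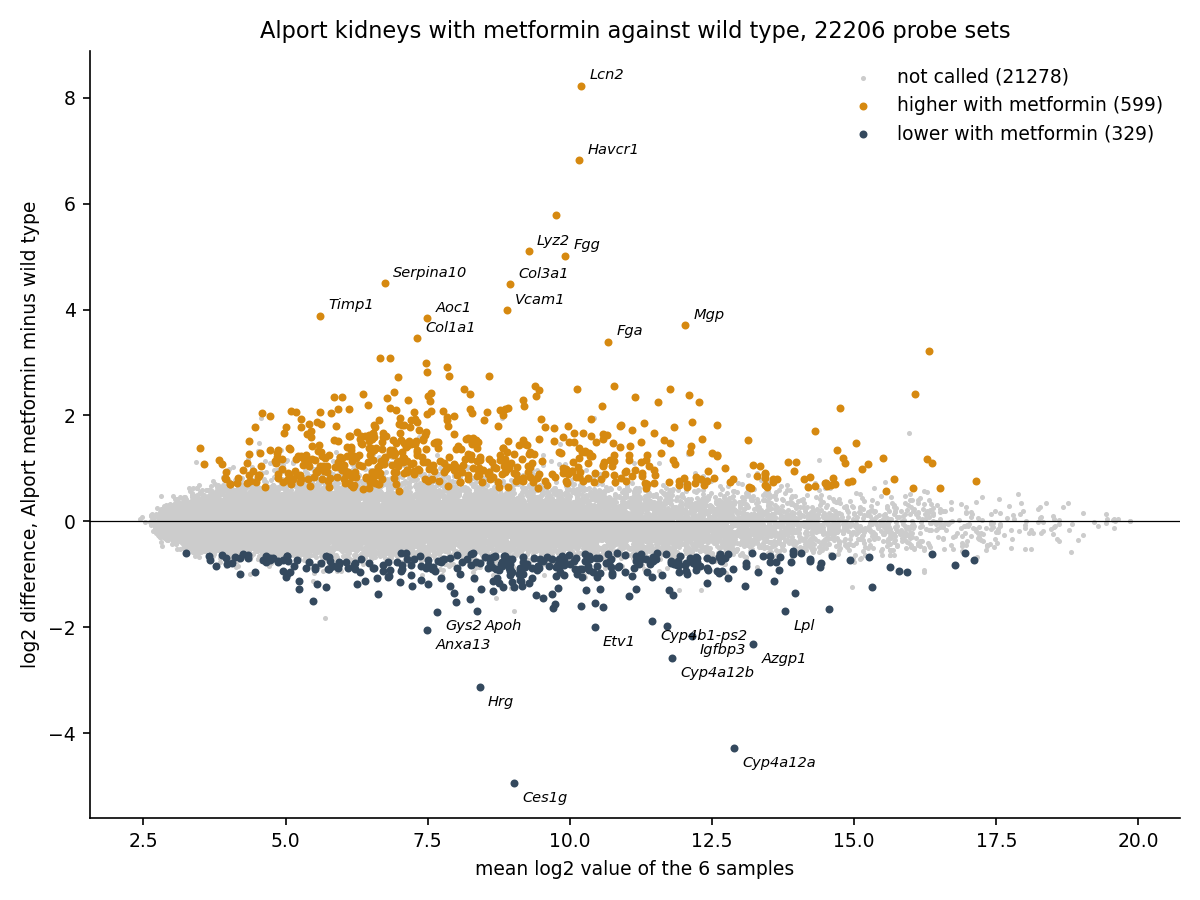
Log2 difference of the metformin-treated Alport group from wild type (vertical axis) against the mean log2 signal over the 6 samples of these groups (horizontal axis), with 1 point per probe set. The 599 called higher and 329 called lower probe sets are coloured; Lcn2 lies at the top near 8.23 and Ces1g at the bottom near -4.94.

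Genes of tubular injury led the rises. The 12 largest rises and 12 largest falls were taken only from called genes whose groups did not overlap. Separation from wild type was thus a condition for naming those genes. Lcn2, which encodes the siderophore-binding protein NGAL that injured tubules release, read 6.05, 6.20 and 6.02 in wild type and 15.04, 14.77 and 13.15 with metformin. Havcr1, which encodes the injury receptor KIM-1 of proximal tubule cells, read 7.21, 6.71 and 6.36 against 14.55, 14.03 and 12.15. In both genes the groups lay far apart, with sample 3 lowest of the metformin samples. Lcn2 rose by 8.23 ± 0.68, a 300.0-fold difference (limma, adjusted p = 6.67e-06) that became 450.0-fold without sample 3. Havcr1 rose by 6.82 ± 0.56, or 113-fold (limma, adjusted p = 6.67e-06), and 185-fold without that sample. Vehicle-treated Alport kidneys stood at 15.46, 14.23 and 15.72 for Lcn2 and at 15.68, 13.66 and 13.80 for Havcr1, overlapping the metformin group in both.

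Of 28 measured injury genes, 17 were higher under metformin than in wild type and none was lower, with a list median of 1.30 beside -0.03 for all probe sets. The count was 12 to 13 without any other sample and 21 without metformin sample 3. Vcam1, the adhesion molecule that marks proximal tubule cells which fail to repair, rose by 3.99 ± 0.53, and by 4.88 without sample 3 (15.9-fold and 29.4-fold). Vim, the mesenchymal intermediate filament, rose by 2.56 ± 0.30. Clu, a secreted chaperone, read 14.98, 14.63 and 15.02 in wild type and 18.05, 17.48 and 16.29 with metformin, a rise of 2.40 ± 0.32. These 3 were called under all 14 alternatives. In vehicle-treated Alport kidneys 27 of the 28 injury genes were higher than wild type, with a median of 2.47.

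Acute phase genes were raised in part. The fibrinogen chain gene Fgg read 7.24, 7.70 and 7.28 in wild type and 13.70, 12.80 and 10.78 with metformin. Every metformin value was above wild type, which the rule for the largest rises required, and sample 3 was again lowest. Fgg rose by 5.02 ± 0.62, or 32.4-fold (limma, adjusted p = 0.000281), and 57.4-fold without sample 3. Fga, which encodes another fibrinogen chain, rose by 3.39 ± 0.51, beside 2.95 in the vehicle group. Of 15 genes for fibrinogen and the acute phase, 6 were higher and none lower. Serpina10, which encodes a coagulation inhibitor, read 4.44, 4.72 and 4.34 in wild type and 10.23, 8.95 and 7.82 with metformin, a rise of 4.50 ± 0.46. The hepatocyte marker Apoa1 stayed at 3.59 to 4.49 in all 12 samples. Alb, another such marker, read 9.05 to 9.28 in wild type, 7.64 to 8.25 with vehicle and 8.95 to 9.98 with metformin. Its difference of 0.23 from wild type did not pass the test (limma, adjusted p = 0.693). None of the 9 hepatocyte genes measured was higher, and the source of the fibrinogen signal was not tested. Ttr, one of those 9, was lower by 1.13 ± 0.28, a call lost without wild type 1 or 3 or without metformin sample 2 or 3 (adjusted p up to 0.118).

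Matrix genes remained high. Col3a1, which encodes a fibrillar collagen of scar tissue, read 6.81, 6.89 and 6.43 in wild type and 11.57, 11.60 and 10.39 with metformin. Col1a1, the main chain of type I collagen, read 5.42, 5.78 and 5.52 against 9.45, 9.87 and 7.79. The groups did not overlap in either gene, which the rule for the largest rises required. Col3a1 rose by 4.48 ± 0.32 or 22.3-fold (limma, adjusted p = 2.97e-06), and Col1a1 by 3.46 ± 0.38 or 11.0-fold (limma, adjusted p = 8.86e-05), the latter 17.0-fold without sample 3. Both were called under all 14 alternatives. Of 26 interstitial collagen and collagen-processing genes, 11 were higher and none lower, with a median of 0.65.

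Among 25 matrix glycoproteins and proteoglycans 11 were higher and none lower (median 0.78). Mgp, an inhibitor of calcification, read 10.11, 10.14 and 10.28 in wild type and 14.49, 13.91 and 13.25 with metformin, a rise of 3.71 ± 0.28. Tnc, the wound-associated tenascin, rose by 2.91 ± 0.36, Fbln1 by 2.73 ± 0.23, the small proteoglycan gene Dcn by 2.25 ± 0.22 and Sparc by 2.14 ± 0.23, all called under every alternative. Of 23 matrix proteases and inhibitors 9 were higher and none lower, which became 5 without wild type 1 or 2 or metformin sample 1, 4 without wild type 3, and 11 without metformin sample 3. Timp1, a protease inhibitor, was called higher (limma, adjusted p = 0.000172), but it stood at 3.54, 4.20 and 3.24 in wild type, at the bottom of the scale, and at 8.23, 8.16 and 6.25 with metformin, so that no size is given. Mmp14, a membrane-bound protease, rose by 1.91 ± 0.30, Ctsk, which encodes a collagen-degrading cathepsin, by 1.41 ± 0.20, and Plat, tissue plasminogen activator, by 1.32 ± 0.17.

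Acta2, smooth muscle actin, read 11.12, 10.04 and 10.36 in wild type and 12.57, 11.85 and 11.57 with metformin. It rose by 1.49 ± 0.32 (limma, adjusted p = 0.0156), and the call was lost without wild type 2 or 3 or metformin sample 1 (adjusted p up to 0.0906). In vehicle-treated Alport kidneys Acta2 read 14.15, 13.57 and 14.39, above every metformin value. Of 15 genes of pericytes, smooth muscle and myofibroblasts 4 were higher than wild type under metformin, or 2 without wild type 3 or metformin sample 1, beside 9 in the vehicle group. The list median was 0.05, or -0.02 after centring, beside 1.17 with vehicle. Myh11, the smooth muscle myosin, and Ccn2, a matricellular protein induced by TGF-beta, were picked after their values were seen. Ccn2 read 10.68, 10.69 and 10.64 in wild type, 11.88, 12.13 and 12.84 with vehicle and 10.81, 10.42 and 10.75 under metformin. Its difference from wild type was -0.01 ± 0.22, and that of Myh11 was -0.05 ± 0.22.

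Of 22 genes of TGF-beta signalling 2 were higher than wild type (9.09%, beside 2.70% of all probe sets) and none lower. The higher count was 1 without wild type 1 or 3 or metformin sample 1 or 2, and 3 without metformin sample 3. Tgfb1 itself differed by 0.96 ± 0.29 and did not pass the test (limma, adjusted p = 0.0777). Without metformin sample 3 it differed by 1.26 and was called (limma, adjusted p = 0.0192). Its values were 9.67, 10.03 and 9.74 in wild type and 11.27, 10.87 and 10.18 with metformin, with no overlap. Tgfbi, an extracellular protein induced by TGF-beta, rose by 1.80 ± 0.30. Among 19 basement membrane genes, 2 were higher (10.5%, beside 2.70% of all probe sets), or 1 without wild type 3 or metformin sample 1 or 2. One was Col4a1, an embryonic-type collagen IV chain, which rose by 1.13 ± 0.17 and was called under all alternatives.

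**Figure D2:**
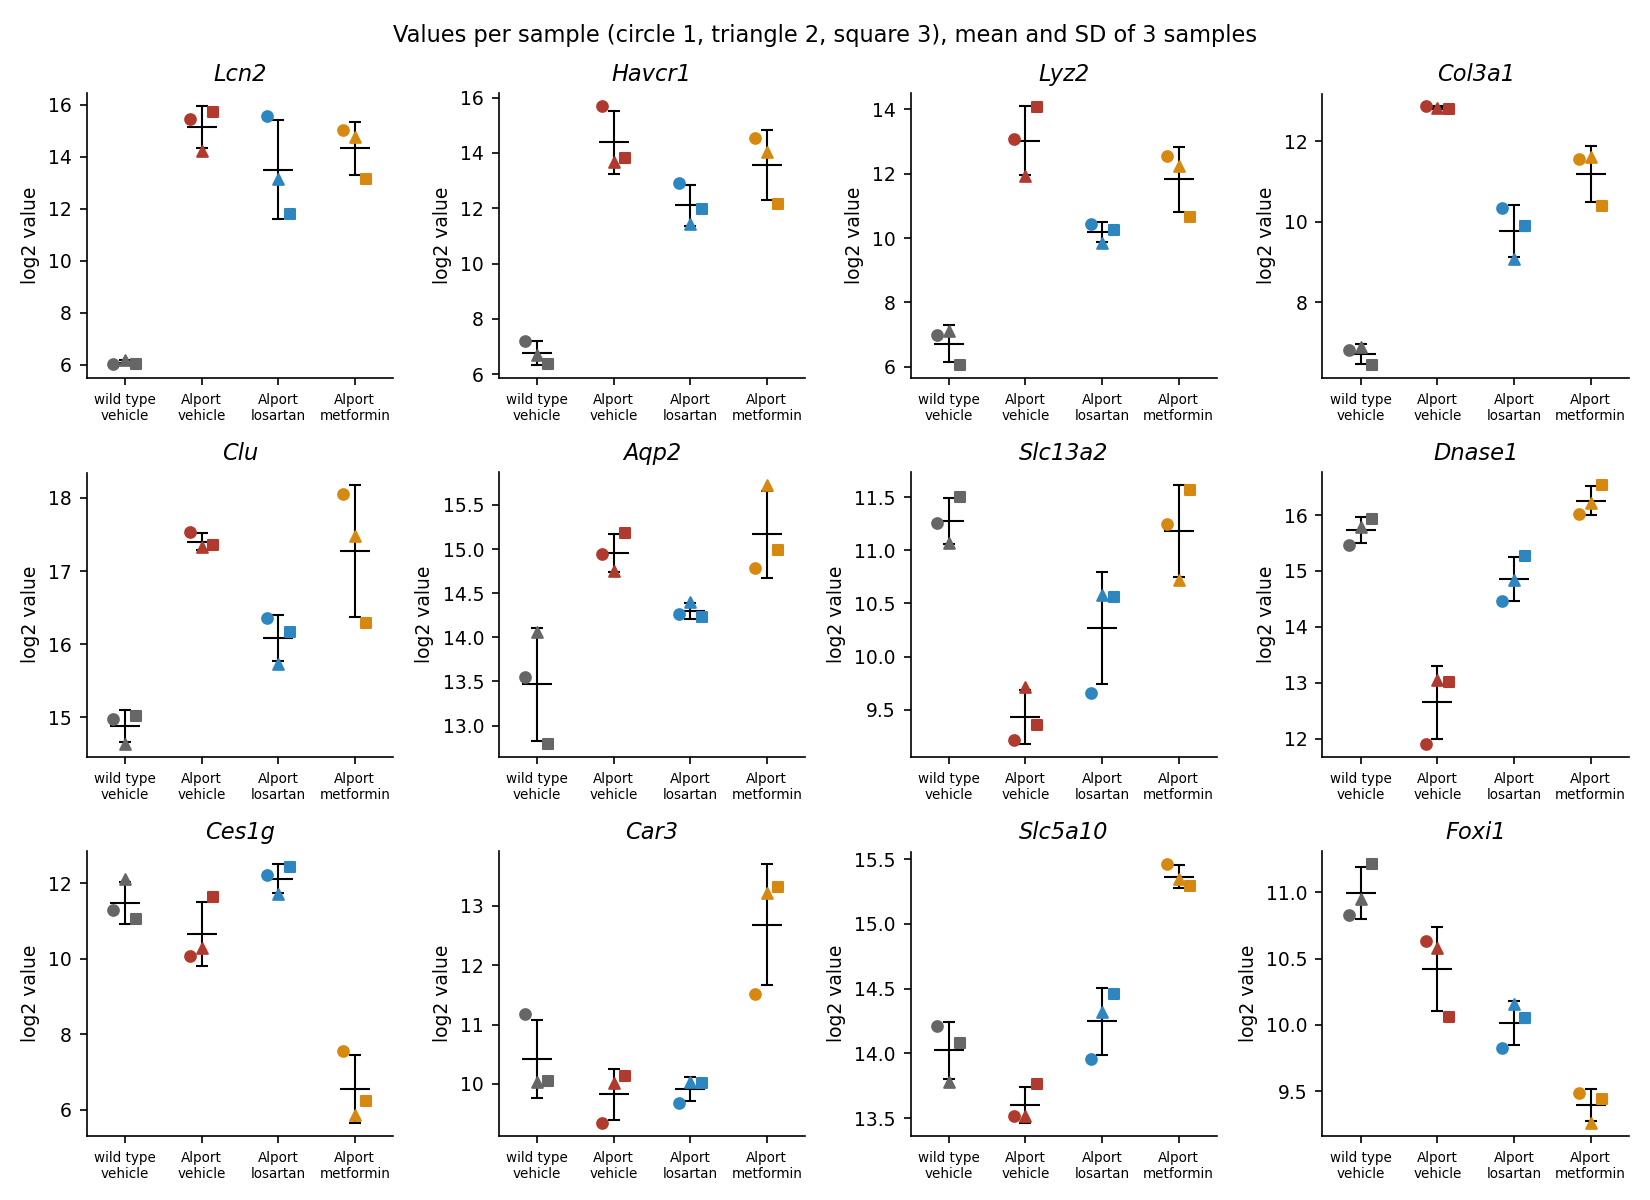
Log2 signal of 12 genes in each of the 12 samples, with 1 point per sample, a line at the group mean and bars of 1 SD (n = 3), for wild type vehicle and for Alport with vehicle, losartan and metformin. Lcn2 and Col3a1 lie above wild type in every metformin sample, and Ces1g reads 7.57, 5.85 and 6.23 there beside 11.06 to 12.12 in wild type.

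Genes of macrophages, class II presentation and complement stayed above wild type in part. Lyz2, the lysozyme of macrophages and other myeloid cells, read 7.0, 7.11 and 6.05 in wild type and 12.56, 12.25 and 10.67 with metformin, a rise of 5.11 ± 0.49 or 34.5-fold (limma, adjusted p = 2.42e-05). Mpeg1, a macrophage pore-forming protein, read 7.11, 7.06 and 6.99 against 10.24, 9.44 and 8.68 and rose by 2.40 ± 0.37. All metformin samples were above all wild type samples in both genes, which the rule for the largest rises required of Lyz2. Of 27 macrophage and monocyte genes 19 were higher and none lower (median 1.51). The count was 10 without wild type 2, 9 without wild type 3, 7 without metformin sample 1 and 8 without metformin sample 2. In the vehicle group 22 of the 27 were higher than wild type, with a median of 2.07. The macrophage marker Csf1r read 10.37 to 10.49 in wild type and 10.41 to 10.61 with metformin. Its difference of 0.11 did not pass the test (limma, adjusted p = 0.809).

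Antigen presentation genes followed the same order of samples. H2-Eb1, a class II chain, read 9.52, 9.13 and 9.75 in wild type and 12.65, 11.75 and 10.54 with metformin. H2-DMb1, a chaperone of peptide loading, read 10.93, 11.16 and 10.72 against 13.42, 12.89 and 11.86. The groups did not overlap, and sample 3 was closest to wild type. H2-Eb1 rose by 2.18 ± 0.39 and H2-DMb1 by 1.79 ± 0.30, although near-identical H2 genes can share signal. Of 8 class II genes 6 were higher, which became 3 without wild type 2, 2 without wild type 3, 2 without metformin sample 1 and 3 without metformin sample 2. Of 18 complement genes 9 were higher and none lower (median 1.15). C1qa, C1qb and C1qc were among the higher ones and are in the macrophage list too. C7, a part of the membrane attack complex, rose by 2.17 ± 0.31, C1qc by 2.11 ± 0.32 and Serping1, the C1 inhibitor, by 1.67 ± 0.27.

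Chemokine and interferon genes were raised in part. Of 33 cytokines and chemokines 7 were higher and none lower, or 11 without metformin sample 3. Cxcl10, which draws T cells and is induced by interferon, read 5.95, 6.41 and 5.64 in wild type and 8.97, 8.73 and 7.19 with metformin, a rise of 2.3 ± 0.35. Cx3cl1, the ligand of the macrophage receptor CX3CR1, read 9.55, 9.31 and 9.38 against 11.35, 11.15 and 10.72, a rise of 1.66 ± 0.19. Both genes stood above wild type in all 3 metformin samples. Of 26 interferon response genes 7 were higher and none lower, with 2 without wild type 1 or metformin sample 1, 3 without wild type 2 or 3, and 11 without metformin sample 3. Irf7, a transcription factor of that response, rose by 1.84 ± 0.32. In the lymphocyte lists 1 of 19 genes of T and NK cells (5.26%) and 1 of 12 of B and plasma cells (8.33%) were higher. Among neutrophil genes 0 of 11 were. Of all probe sets 2.70% were higher, and lists this small cannot show whether their calls were few or many. Leaving out wild type 1 or 3 or metformin sample 1 or 2 took both lymphocyte lists to 0, wild type 2 did so for B and plasma cells, and T and NK cells had 2 without metformin sample 3.

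Proliferation and stress genes were raised in part. Mki67, a marker of cycling cells, read 6.39, 6.21 and 6.31 in wild type and 8.48, 8.58 and 7.17 with metformin, a rise of 1.77 ± 0.29. Ccnb2, a mitotic cyclin, rose by 1.62 ± 0.23. Of 25 cell cycle genes 10 were higher and none lower, a count of 6 without wild type 1, 3 without wild type 3, 3 without metformin sample 1, 4 without metformin sample 2 and 13 without metformin sample 3. Of 20 immediate early genes 7 were higher, or 4 without metformin sample 1. Myc read 7.74, 8.38 and 8.0 in wild type and 10.76, 10.25 and 9.99 with metformin, a rise of 2.29 ± 0.25. Nupr1, a stress-induced nuclear protein from the ATF4 list, read 8.79, 9.07 and 8.75 against 11.42, 11.56 and 11.15, and rose by 2.51 ± 0.19 (limma, adjusted p = 2.97e-06). In Nupr1 the 3 metformin samples lay close together, sample 3 included. Of the 27 genes of the ATF4 and integrated stress response list 6 were higher, but 3 after centring, 2 after quantile normalization, and 3 with the unadjusted p and 2-fold limit. The count was 1 without wild type 2 or 3 or metformin sample 1 or 2, 2 without wild type 1 and 7 without metformin sample 3. None of the 18 genes of the p53 and senescence list was called, but 1 was higher with array weights, with the unadjusted p and 2-fold limit, or without metformin sample 3. Cdkn1a, from that list, was 1.26 above wild type (limma, adjusted p = 0.0938). Without metformin sample 3 it was 1.73 above and called (limma, adjusted p = 0.0132).

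Of 19 podocyte genes 3 were higher than wild type, beside 2.70% of all probe sets, and none was lower, with a median of 0.04, or -0.02 after centring. Synpo, an actin organiser of podocyte foot processes, read 8.99, 8.82 and 8.56 in wild type and 9.83, 9.75 and 9.89 with metformin, and rose by 1.03 ± 0.17. Nes, an intermediate filament gene of podocytes, rose by 1.46 ± 0.26. Nphs1, which encodes nephrin of the slit diaphragm, read 9.58, 9.64 and 9.64 against 9.36, 9.07 and 9.25. Its difference of -0.39 ± 0.20 did not pass the test (limma, adjusted p = 0.33).

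Proximal tubule carriers lay near wild type in their list median. Of 47 proximal tubule carriers 2 were higher under metformin, Slc5a10 and Slc5a1 (4.26%, beside 2.70% of all probe sets). None was lower, beside 1.48% of all probe sets. In vehicle-treated Alport kidneys 37 were lower than wild type, where 7.71% of all probe sets were lower. The list medians were -0.15 and -0.94. The list mean was 15.03, 14.83 and 14.93 in wild type, 14.82, 14.78 and 14.92 with metformin and 13.69, 14.06 and 13.99 with vehicle. Metformin and wild type overlapped in this mean, and all vehicle samples were below both. Slc34a1 read 19.19, 19.15 and 19.11 in wild type and 18.81, 19.01 and 18.86 with metformin, a difference of -0.26 ± 0.15 (limma, adjusted p = 0.404). Slc22a2, an organic cation carrier that takes metformin into the tubule cell, read 17.17, 16.70 and 17.23 against 16.74, 16.82 and 16.73. Of the 5 measured carriers of metformin none was called against wild type. Of 42 proximal tubule receptors and enzymes 4 were lower (9.52%, beside 1.48% of all probe sets) and none higher (median -0.23). With a trended robust prior 9 were lower. With vehicle 27 were lower (median -0.92), beside 7.71% of all probe sets. The 4 were Ces1g, Cyp4a12a, Azgp1, a secreted protein linked to lipid use, and Pm20d1 at -1.23, whose call was lost without wild type 3 or metformin sample 2 (adjusted p up to 0.061).

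**Figure D3:**
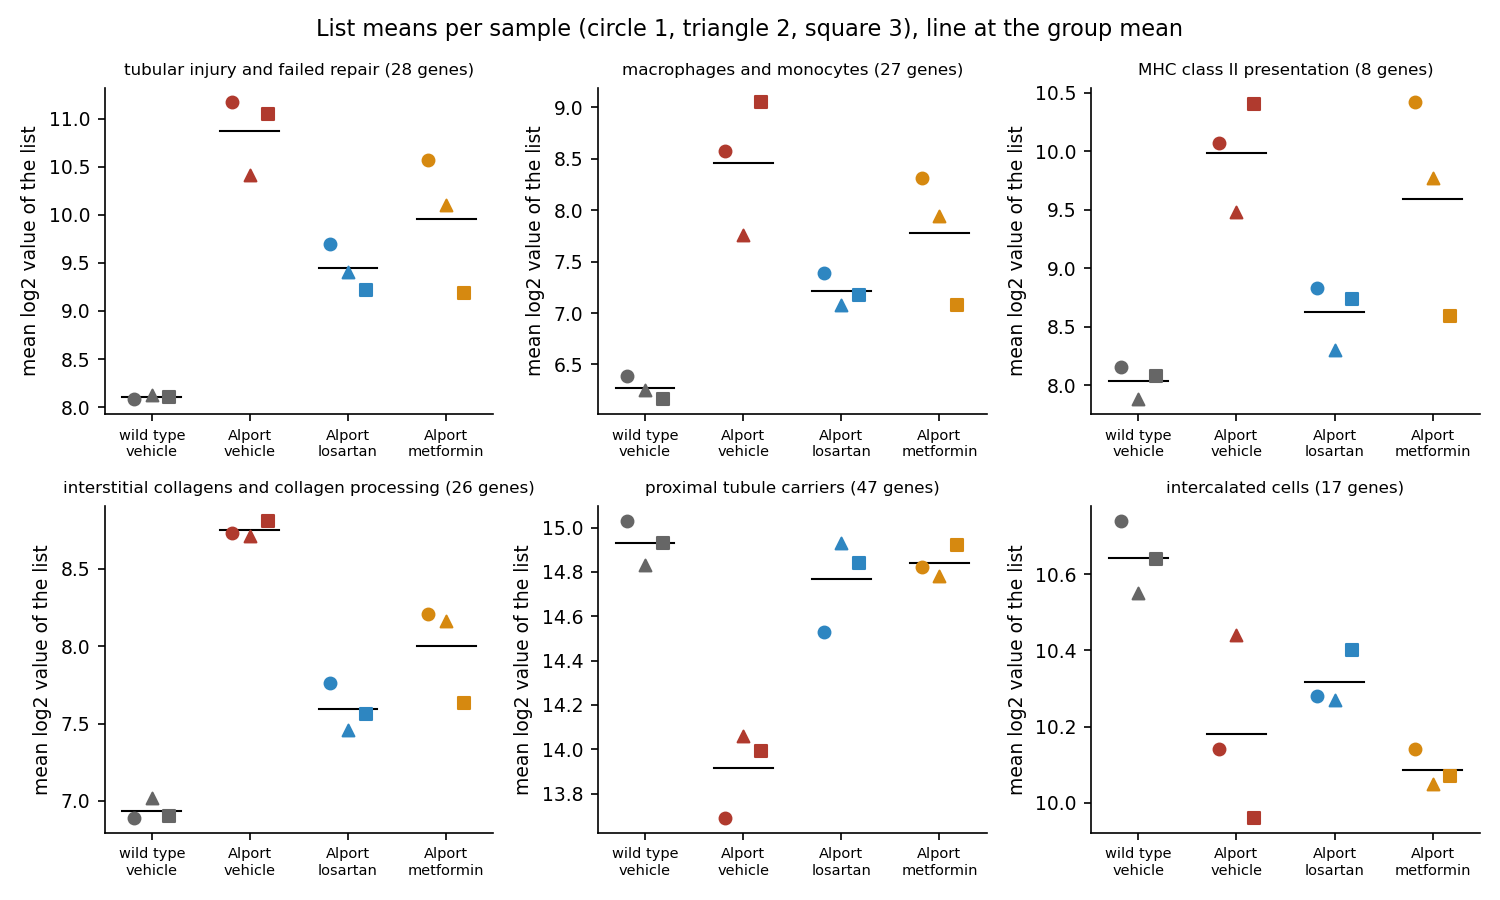
Mean log2 signal over the genes of 6 lists in each of the 12 samples, with 1 point per sample and a line at the group mean. Metformin sample 3 is the lowest metformin sample in tubular injury (9.19) and macrophage genes (7.08), whereas the 3 samples lie between 14.78 and 14.92 in proximal tubule carriers.

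Metabolic genes of the tubule were also near wild type in their list medians. Over all probe sets 1.48% were lower under metformin and 7.71% with vehicle, so that a list without a lower call is near the metformin share. None of 33 amino acid breakdown genes was called under metformin, beside 26 lower in the vehicle group, and none of 15 NAD synthesis genes, beside 10. Amino acid breakdown had 4 lower and 1 higher with a trended robust prior. Without metformin sample 3 it had 2 lower and 1 higher, and its median went from -0.27 to -0.43. NAD synthesis had 1 lower without metformin sample 3 and 1 higher without metformin sample 2. Fatty acid oxidation had 2 of 39 lower (median -0.24), beside 22 (median -0.66), and these 2 became 1 without wild type 1 or metformin sample 2 and 0 without wild type 2 or 3 or metformin sample 1. Of 26 citric acid cycle genes none was called, beside 11 lower. In gluconeogenesis and fructose use 2 of 13 were lower, beside 8, and these 2 became 1 without wild type 1 or metformin sample 3 and 0 without any other sample of the 6. None of the 60 respiratory chain genes in the lists was called against wild type, with medians of -0.02 for complex I and 0.08 for complexes III to V. A missed call does not show that a gene was at its wild type level, as the median standard error over all probe sets was 0.198.

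**Figure D4:**
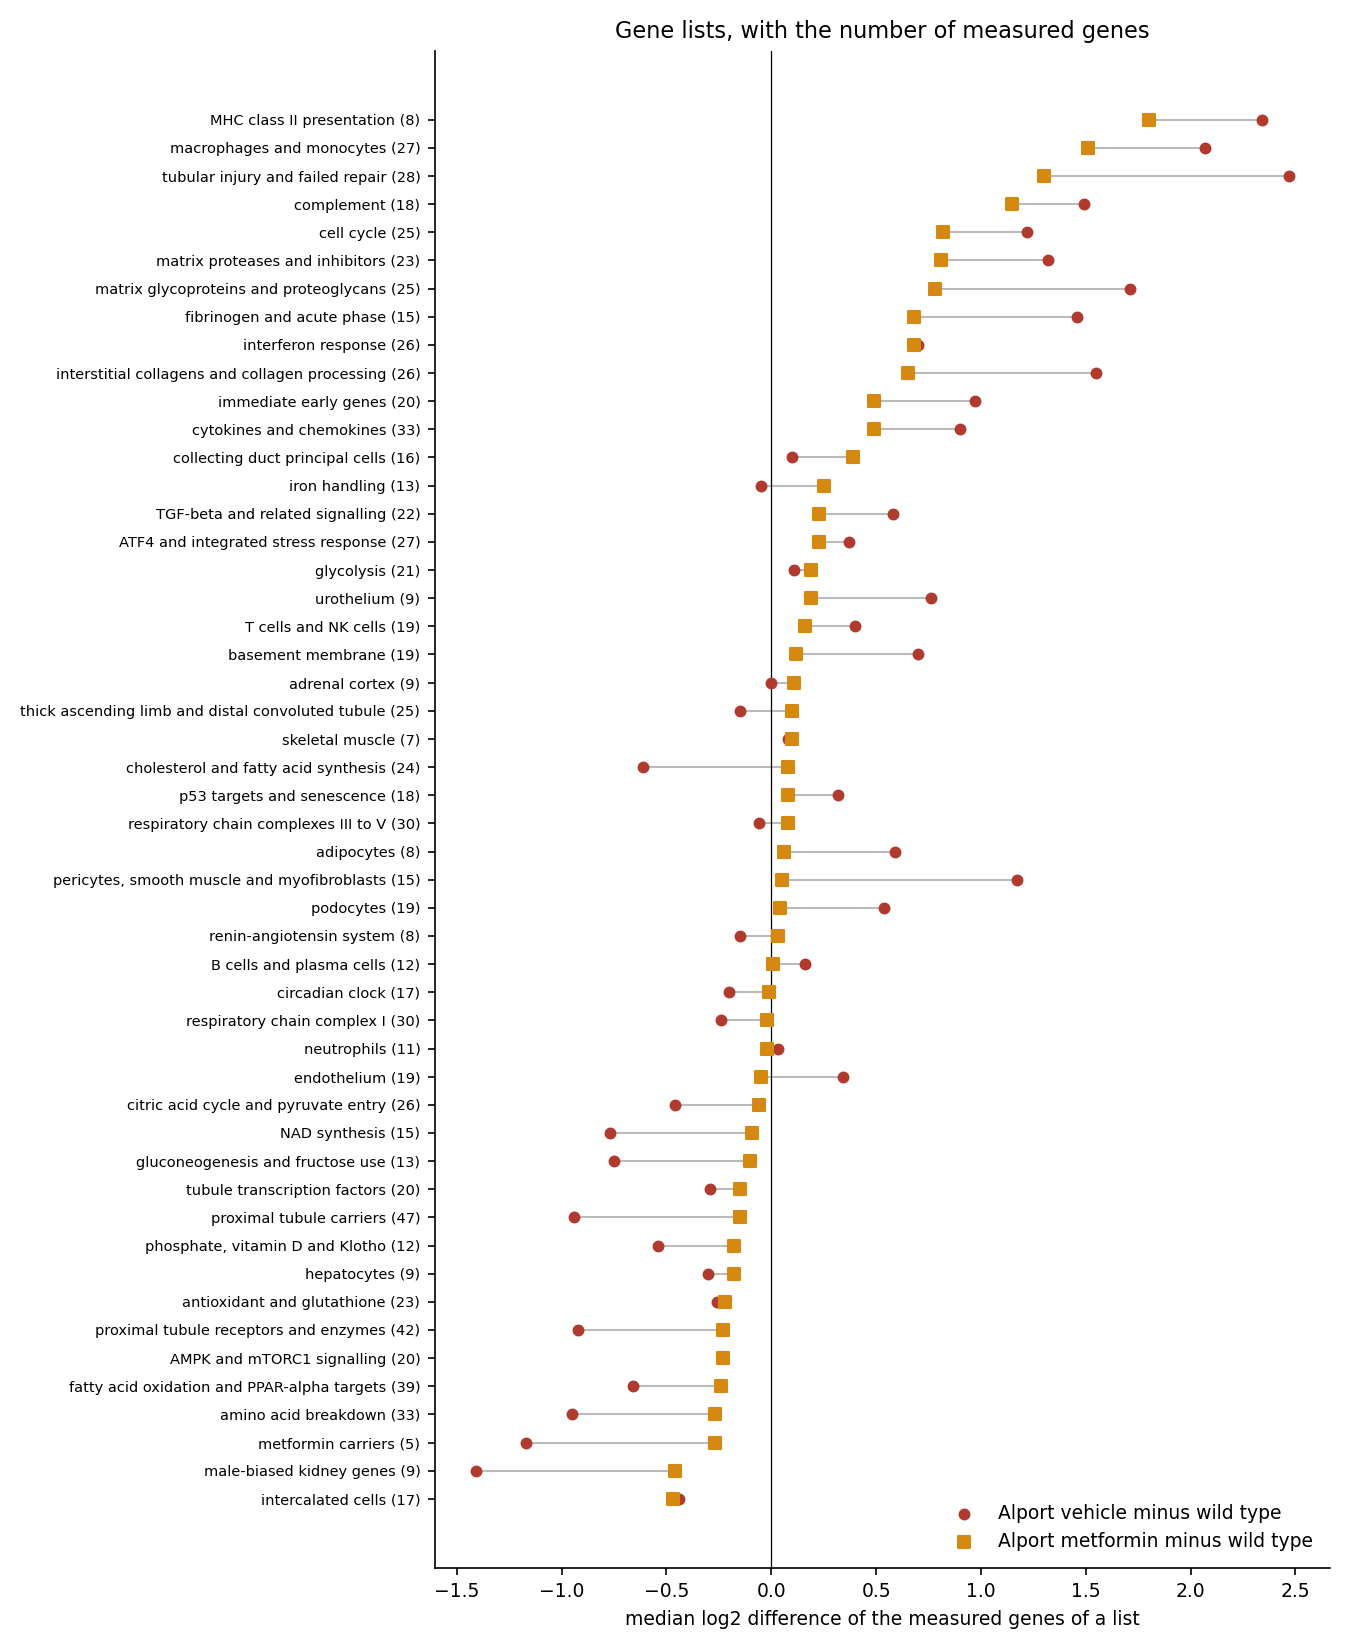
Median log2 difference from wild type over the measured members of each gene list, for vehicle-treated (circles) and metformin-treated (squares) Alport kidneys, which share the 3 wild type samples. The small lists of female-biased kidney genes and red blood cells are not drawn. Each list name carries its number of genes. Metformin medians reach 1.80 for class II presentation and 1.30 for tubular injury and lie at -0.15 for proximal tubule carriers, where the vehicle median is -0.94.

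In glycolysis 4 of 21 genes were higher and none lower, a count of 1 without wild type 2 or metformin sample 1 or 2, and of 2 without wild type 3 or metformin sample 3. Pfkp, the platelet-type phosphofructokinase, read 10.55, 9.93 and 10.14 in wild type and 11.51, 11.53 and 10.98 with metformin. It rose by 1.13 ± 0.20 (limma, adjusted p = 0.00468) and was called under every alternative. Pklr, the pyruvate kinase of liver and proximal tubule, read 7.97, 8.11 and 7.87 in wild type and 9.68, 9.37 and 8.43 with metformin, and was at 8.02, 7.96 and 7.72 with vehicle. Its rise of 1.18 ± 0.25 lost the call without wild type 3 or without metformin sample 1 or 2 (adjusted p up to 0.0855). Acly, which makes cytosolic acetyl-CoA for lipid synthesis, was lower by 0.89 ± 0.19, a call lost without wild type 3 or metformin sample 1. In the AMPK and mTORC1 list 1 of 20 was called (2 without metformin sample 3), Mtor, at -0.98 ± 0.21, and the call was lost in the same 2 omissions (adjusted p up to 0.0828).

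The distal nephron kept differences of its own. Foxi1, the transcription factor that specifies intercalated cells, read 10.83, 10.95 and 11.21 in wild type and 9.49, 9.26 and 9.44 with metformin. The groups were more than 1 log2 unit apart at their nearest values. Foxi1 fell by 1.60 ± 0.19 (limma, adjusted p = 0.000155), and the fall was 1.62 without sample 3. Of 17 intercalated cell genes 5 were lower and none higher (median -0.47), a count of 3 without wild type 3. Insrr, a receptor that senses alkali, fell by 1.47 ± 0.23, and Slc4a9, a bicarbonate carrier, by 0.95 ± 0.18. Atp6v1c2, a proton pump subunit, fell by 1.08 ± 0.22, a call lost without wild type 3 (adjusted p = 0.0654). Slc26a4, the chloride and bicarbonate exchanger pendrin, was picked after its values were seen, and its fall of 1.05 ± 0.26 was lost when wild type 2 or 3 or metformin sample 1 or 2 was left out. In the vehicle group 6 of the 17 were lower, with a median of -0.44.

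Aqp2, the vasopressin-regulated water channel of principal cells, read 13.55, 14.06 and 12.79 in wild type and 14.79, 15.72 and 14.99 with metformin. It rose by 1.70 ± 0.28 (limma, adjusted p = 0.00261), with 2 of 16 principal cell genes higher in all, or 1 without wild type 3 or metformin sample 1 or 2. Cldn19, a tight junction protein of the thick ascending limb, read 10.30, 10.10 and 10.09 against 11.27, 11.47 and 11.49, a rise of 1.25 ± 0.19. Umod, the most abundant product of that segment, differed by 0.34 ± 0.15 and did not pass the test (limma, adjusted p = 0.234). Slc34a2, a phosphate carrier better known from lung and gut, rose by 1.91 ± 0.35, and by 2.42 without sample 3. Vdr, the vitamin D receptor, read 13.85, 14.11 and 14.44 in wild type and 13.23, 13.19 and 13.21 with metformin, and fell by 0.92 ± 0.17.

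Cyp4a12a, an androgen-dependent fatty acid hydroxylase, read 15.36, 14.81 and 14.89 in wild type and 9.79, 11.50 and 10.93 with metformin. It fell by 4.28 ± 0.33, or 19.4-fold (limma, adjusted p = 2.97e-06), with vehicle-treated Alport kidneys at 10.88, 10.79 and 11.40. Its near copy Cyp4a12b, whose signal may be shared, fell by 2.58 ± 0.24. Both metformin and vehicle samples were below every wild type sample in these genes. The rule for the largest falls required this of the metformin samples. Of 9 male-biased kidney genes 2 were lower under metformin, beside 7 in the vehicle group. The count was 1 without wild type 1 or 3 or metformin sample 1, and 3 without metformin sample 2. None of 3 female-biased kidney genes was called, with a median of 1.26. Their list mean was 9.08, 8.69 and 8.98 in wild type and 11.45, 8.94 and 9.96 with metformin. Hrg, a plasma glycoprotein, read 9.95, 10.05 and 9.95 against 5.96, 7.09 and 7.51 and fell by 3.13 ± 0.32. Azgp1 fell by 2.33 ± 0.33, and Apoh by 1.70 ± 0.28. Etv1, a transcription factor of the ETS family, read 11.51, 11.34 and 11.46 in wild type and 9.63, 9.05 and 9.62 with metformin, a fall of 2.00 ± 0.21.

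Of 20 tubule transcription factors 5 were lower and 2 higher, the latter 1 without wild type 2 and 0 without wild type 1 or 3 or metformin sample 1 or 2. Besides Foxi1 the lower ones were Hnf4g at -1.07, Ppargc1a, a coactivator of mitochondrial genes, at -0.67, Esrrg at -0.62 and Maf at -0.76, the last pair picked after their values were seen. Each of these 4 lost its call when wild type 2 or 3 or metformin sample 1 or 2 was left out, with adjusted p up to 0.106 for Hnf4g, 0.128 for Ppargc1a, 0.136 for Esrrg and 0.183 for Maf. The lower count was 2 without wild type 1, and 1 without wild type 2 or 3 or metformin sample 1 or 2. In the endothelium list 1 of 19 was higher, beside 2.70% of all probe sets, and 1 lower, beside 1.48%. Icam1, a leukocyte adhesion molecule, was 0.98 above wild type, a call lost under 10 alternatives, among them centring, quantile normalization and leaving out any sample but metformin sample 3 (adjusted p up to 0.234). Kdr, the main VEGF receptor, was at -0.83 ± 0.19. Its call was lost when any wild type sample or metformin sample 1 was left out (adjusted p up to 0.126).

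Some genes stood as far from wild type under metformin as with vehicle. They were chosen among called genes as those whose 95% interval of metformin minus vehicle lay within 0.75 of 0 on the log2 scale. Igfbp3, which binds insulin-like growth factors, read 12.88, 13.35 and 13.44 in wild type, 11.01, 11.21 and 11.35 with vehicle and 10.74, 11.13 and 11.32 with metformin. It fell by 2.16 ± 0.20 against wild type and differed by -0.13 from vehicle. Gys2, glycogen synthase of the liver type, read 8.50, 8.62 and 8.45 in wild type, 6.99, 7.36 and 6.86 with vehicle and 6.81, 6.36 and 7.28 with metformin, a fall of 1.71 ± 0.21. The B cell and macrophage receptor Cd72 rose by 2.03 ± 0.32. Pappa, Tlr13 and Ect2 were the others of this kind, at 1.87, 1.78 and 1.66 above wild type.

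Other genes were still high but nearer to wild type. Against vehicle, metformin differed in 1096 probe sets (4.94%), of which 592 were higher (2.67%) and 504 lower (2.27%). After centring the split was 827 higher and 381 lower, so that the higher share went from 54.0% to 68.5%. The counts were 167 higher and 180 lower without vehicle sample 1, 437 and 291 without vehicle sample 3, 371 and 276 without metformin sample 2, and 152 and 114 without metformin sample 3. Tnc read 11.52, 10.90 and 11.74 with vehicle and 9.38, 10.06 and 8.43 with metformin, above 6.27 to 6.54 in wild type. Metformin thus lay between the other groups with no overlap, 2.10 below vehicle (limma, adjusted p = 0.00456). Col1a1 was 1.94 and Col1a2 2.08 lower than with vehicle, and Egr1, an immediate early gene, 2.01 lower. Fbln1 was 1.78 lower. Serpina3n, an acute phase inhibitor, was 1.81 lower, and only 1.13 lower without metformin sample 3, where the call was lost (adjusted p = 0.0692).

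A further kind had returned to within 0.75 of wild type, by its 95% interval, from a called difference in the vehicle group. Cyp2d12, a cytochrome P450, read 12.26, 12.67 and 12.65 in wild type, 9.84, 10.24 and 10.38 with vehicle and 12.32, 12.47 and 13.31 with metformin. Slc13a2, the citrate carrier of the proximal tubule, read 11.26, 11.07 and 11.50, then 9.22, 9.71 and 9.36, then 11.25, 10.72 and 11.57. In both genes metformin overlapped wild type and lay above every vehicle sample. Jchain, the joining chain of secreted antibodies, read 5.34, 5.36 and 5.20 in wild type and 5.92, 5.57 and 4.78 with metformin, 2.63 below vehicle. Slc16a4, Slc22a4 and Acsm5 were 1.92, 1.89 and 1.82 above vehicle. Dnase1, a secreted nuclease picked after its values were seen, was not of this kind, as its interval against wild type ran from -0.07 to 1.12. It read 15.47, 15.79 and 15.93 in wild type, 11.90, 13.05 and 13.01 with vehicle and 16.02, 16.21 and 16.53 with metformin. All 3 metformin values lay above every wild type and vehicle sample. Dnase1 was 3.60 ± 0.28 above vehicle (limma, adjusted p = 1.6e-05), and its difference of 0.52 ± 0.28 from wild type did not pass the test (limma, adjusted p = 0.351).

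A small group lay on the far side, differing from wild type in a direction that was called against vehicle too. The clearest was Ces1g, a carboxylesterase of lipid handling, and its promoter is given here with those of Slc5a10 and Ciart because these 3 genes lay farther from wild type under metformin than with vehicle. Sequences are the 250 bases before the annotated start, from RefSeq on GRCm38.p6, 5′ to 3′ on the minus strand, where all 3 genes lie. Capitals mark the motif searched in each on both strands. In Ces1g (chr8:93337210-93337459) they mark the TATA box TATAAA, here read from the other strand 26 bases before the start, and in Slc5a10 (chr11:61720800-61721049, the first of 2 annotated starts) GTTAAT, the first 6 bases of the HNF1 motif, from the other strand at 75 bases. In Ciart (chr3:95882229-95882478) they mark 3 copies of CACGTG, the E-box bound by CLOCK and BMAL1, at 116, 58 and 44 bases.
Ces1g: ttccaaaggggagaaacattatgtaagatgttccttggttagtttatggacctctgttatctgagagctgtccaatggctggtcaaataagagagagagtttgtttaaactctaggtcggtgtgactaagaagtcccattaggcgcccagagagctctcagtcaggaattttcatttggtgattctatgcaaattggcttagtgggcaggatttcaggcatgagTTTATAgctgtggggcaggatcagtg
Slc5a10: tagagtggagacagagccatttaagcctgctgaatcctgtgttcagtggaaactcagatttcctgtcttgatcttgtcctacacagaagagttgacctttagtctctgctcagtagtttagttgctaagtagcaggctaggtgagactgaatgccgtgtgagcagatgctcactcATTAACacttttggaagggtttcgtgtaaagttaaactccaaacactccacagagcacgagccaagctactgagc
Ciart: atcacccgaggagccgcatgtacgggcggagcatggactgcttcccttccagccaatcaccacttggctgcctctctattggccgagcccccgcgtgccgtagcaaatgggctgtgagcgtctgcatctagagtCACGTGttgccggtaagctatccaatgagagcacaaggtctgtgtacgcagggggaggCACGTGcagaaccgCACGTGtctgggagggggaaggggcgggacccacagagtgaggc
Of 32851 promoter windows of this length, TATAAA was found in 4063 (12.4%), GTTAAT in 2113 (6.43%) and CACGTG in 1978 (6.02%). These matches describe letters in the window and not bound sites.

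Ces1g read 11.30, 12.12 and 11.06 in wild type, 10.07, 10.30 and 11.63 in vehicle-treated Alport kidneys, 12.22, 11.71 and 12.45 under losartan and 7.57, 5.85 and 6.23 under metformin. All metformin samples were below every one of the other 9, although the rule for the largest falls required this against wild type. Ces1g fell by 4.94 ± 0.43 against wild type (limma, adjusted p = 9.85e-06) and was 4.12 below vehicle (limma, adjusted p = 0.000174). Vehicle and wild type differed by -0.83, which did not pass the test (limma, adjusted p = 0.228). The other 6 measured Ces1 genes differed from wild type by -0.86 to -0.12, and 1 of them was called lower, Ces1c. Signal may be shared within this family.

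Car3, carbonic anhydrase of muscle and fat tissue, read 11.17, 10.04 and 10.05 in wild type, 9.34, 10.01 and 10.14 with vehicle and 11.51, 13.21 and 13.32 with metformin. It rose by 2.26 ± 0.40 against wild type (limma, adjusted p = 0.0045) and was 2.85 above vehicle. The adipocyte marker Plin1 and the muscle marker Acta1 stayed low, Acta1 at 3.33 to 3.81 in all samples. Another muscle marker, Ckm, read 6.15 to 6.23 in wild type and 6.12 to 6.62 with metformin. Tnnt3, of the skeletal muscle list, was 0.85 above wild type and did not pass the test (limma, adjusted p = 0.234). The source of the Car3 signal was not tested. Slc5a10, a mannose and fructose carrier of the proximal tubule, read 14.21, 13.78 and 14.08 in wild type, 13.52, 13.52 and 13.76 with vehicle and 15.46, 15.35 and 15.29 with metformin. Its metformin values were the highest of all samples, 1.34 ± 0.18 above wild type and 1.77 above vehicle, and both calls held under every alternative. Slc5a1, the glucose carrier SGLT1, read 10.99, 10.51 and 10.69 against 12.29, 11.91 and 11.75 and rose by 1.25 ± 0.20. Its difference of 0.87 from vehicle lost the call without vehicle sample 1 or 2 or metformin sample 1 (adjusted p up to 0.082). Foxi1 was 1.03 below vehicle, a call kept under every alternative.

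Clock genes appeared here as well. Ciart, a repressor of CLOCK and BMAL1, read 5.60, 6.00 and 5.99 in wild type, 4.29, 5.55 and 5.22 with vehicle and 6.89, 7.14 and 7.31 with metformin. It was 2.09 above vehicle under every alternative, and its rise of 1.25 ± 0.27 against wild type lost the call without wild type 1 or 3 or metformin sample 2 (adjusted p up to 0.068). Cry2, a cryptochrome of the same feedback loop, rose by 1.16 ± 0.22 against wild type, while its difference of 0.86 from vehicle was lost under 8 alternatives. Of 17 clock genes 2 were higher, or 1 without wild type 1 or 3 or metformin sample 2, and 1 lower, Npas2, at -1.04, whose call was lost without wild type 1 or 3 or any metformin sample (adjusted p up to 0.183). The time of day at which kidneys were taken is not given in the sources used here.

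Metformin may have been given to the losartan group too, and a difference from it may then not be one between the 2 drugs. Against losartan, 10 probe sets (0.0450%) differed by limma's test, 4 higher (0.0180%) and 6 lower (0.0270%), and 1859 at an unadjusted p under 0.05. Higher calls were 1 without losartan sample 1, 0 without losartan sample 2, 2 without losartan sample 3 or metformin sample 1 and 77 without metformin sample 3, and lower calls 14 without metformin sample 3. Among those also called against wild type, Ces1g was 5.58 lower (adjusted p = 6.8e-06) and Cyp4a12a 2.82 lower (adjusted p = 0.00146), each called under every alternative. Cyp4a12a read 13.43, 13.90 and 13.34 with losartan, between wild type and metformin without overlap. Cyp4a12b was 1.77 lower, a call lost without metformin sample 1 (adjusted p up to 0.0687). Anxa13, a membrane-binding annexin of epithelia, read 8.75, 8.22 and 8.59 in wild type, 7.95, 7.98 and 7.60 in the losartan group and 6.56, 6.01 and 6.82 under metformin. Anxa13 was 1.38 below losartan. Car3 was 2.77 and Slc5a10 1.12 above losartan. The calls of these 3 against losartan were each lost under 5 alternatives (adjusted p up to 0.133, 0.102 and 0.161). Leaving out losartan sample 1 or 2 or metformin sample 2 lost each of the 3, and leaving out metformin sample 1 also lost Anxa13 and Slc5a10.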

How the data were processed

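RNA from whole kidney (100 ng per sample) had been labelled with biotin and hybridised to Affymetrix Clariom S arrays, per the labels' protocols. The authors deposited 1 log2 value per probe set and sample. The scale was read from the values. Per the submitters' processing notes, the software was Transcriptome Analysis Console 4.0. Background correction, normalization and probe summary were not given in the sources used here. An array has no read depth, so that the number of arrays limits the precision. Of 22206 probe sets, 19572 had 1 gene symbol from the platform annotation, none had several and 2634 stayed unnamed. For the 55 symbols with more than 1 probe set, lists used the one with the highest mean over all samples.

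With limma 3.58.1 in R 4.3.3, lmFit estimated the 4 group means from all 12 samples (8 residual degrees of freedom) and eBayes moderated the variances. Two-sided p-values went through Benjamini-Hochberg adjustment over all 22206 probe sets, with 0.05 as the threshold for a change. Errors are standard errors of that fit. The procedure was tested on simulated data.

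The rule for named genes took a fixed set of 9, the 12 largest rises and 12 largest falls without overlap between groups (10.6% of all probe sets had all metformin samples above and 12.2% below wild type), up to 4 members per list with the smallest p, and up to 6 genes per kind by their position against vehicle, wild type and losartan. Exceptions are marked. The comparison, the 52 gene lists (1007 members measured, 87 not) and the rule were chosen with earlier results of these data known. The 14 alternatives were centring, quantile normalization, leaving out the dimmest probe sets, another variance prior, weights per array, a fit without the other groups, an unadjusted p with a 2-fold limit, a replicate block and leaving out each sample in turn. Same-numbered samples were not treated as pairs. Deviations from group means correlated at -0.14 to 0.078 between same-numbered samples and at -0.198 to 0.262 between others. With 3 samples per group these values cannot show whether the numbers pair the samples.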

Additional observations from a re-analysis of the deposited data

How the results depend on the processing

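No called value reversed under the 14 alternatives. Of 3704 values of 266 genes, 3356 kept their direction and side of the threshold, 42 values, from 24 genes, were uncalled and changed sign, 233 lost the call and 73 gained one, and 79 of 126 called genes were called under every alternative. Against wild type, lower calls were 494 with array weights and 98 by unadjusted p with 2-fold. Against vehicle, a fit of only those groups gave 232 higher and 178 lower, and unadjusted p with 2-fold 239 and 272. Against losartan, array weights gave 8 higher, the fit of only those groups 0 higher and 3 lower, and unadjusted p with 2-fold 78 and 24. A trended robust prior left 3 of the class II genes. Small lists moved too: lower tubule transcription factors were 3 in the fit of only those groups and 2 by unadjusted p with 2-fold, glycolysis 2 by the latter, gluconeogenesis 1 after quantile normalization, and the T and NK cell and higher endothelium counts 0 after centring. With a replicate block the ATF4 list had 3. Leaving out 1 sample gave 246 to 721 higher and 94 to 298 lower against wild type, 152 to 684 and 114 to 636 against vehicle, and 0 to 77 and 4 to 14 against losartan. In lists, leaving out 1 sample gave 7 to 20 for macrophages, 2 to 6 for class II, 3 to 13 for cell cycle, 6 to 11 for complement and 12 to 21 for injury. Same-numbered samples were not treated as pairs in the main fit. With a replicate block the counts were 541 higher and 262 lower against wild type, 485 and 425 against vehicle, and 7 and 8 against losartan. The cause of these shifts was not tested, beyond the smaller number of samples when one is left out. Signal near the bottom of the scale limits low genes such as Col4a5 and Timp1.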

Other observations

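Among genes outside the lists above, Aoc1, which encodes diamine oxidase, read 5.88, 5.49 and 5.37 in wild type and 10.44, 10.02 and 7.78 with metformin. It rose by 3.83 ± 0.46 (limma, adjusted p = 0.000229), and by 4.65 without metformin sample 3. Cp, the ferroxidase ceruloplasmin, was the 1 gene of 13 for iron handling that was higher, at 2.38 above wild type, with 2 higher without wild type 1 or metformin sample 3. In the antioxidant and glutathione list 1 of 23 genes was lower and none higher, and 0 were lower when any sample was left out. Of the 52 lists, 28 had a member called higher, 14 a member called lower and 14 no call in either direction, among them the 8 genes of the renin-angiotensin system, adipocytes, adrenal cortex and skeletal muscle.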
